A study of Mus musculus with 12 samples.

Results

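The question addressed here was whether mouse liver answered carbon tetrachloride (CCl4) differently when a virus against the long noncoding RNA lnc-LFAR1 had been given. The quantity described is a difference between differences. For each gene, the CCl4 response with the knockdown virus (shLFAR1+CCl4 minus shLFAR1) was taken, the CCl4 response with the control virus (NC+CCl4 minus NC) was subtracted, and the result is called the difference between the responses. It is given in log2 units, so a value above 0 means a larger rise or a smaller fall with the knockdown virus. All 12 arrays of the series entered, in 4 groups of 3, and the difference was formed for 18193 genes, each read by 1 probe set, that of the highest mean value. No gene was chosen by its value for this test, whereas the genes named below were in part chosen by their values.

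All mice were male Balb/c animals obtained at 8 weeks of age, before the injections began, and RNA came from whole liver. NC mice received olive oil and the control lentivirus (Lenti-NC), NC+CCl4 mice received CCl4 and Lenti-NC, shLFAR1 mice received oil and the lentivirus that encodes a hairpin RNA targeting lnc-LFAR1 (Lenti-shLFAR1), and shLFAR1+CCl4 mice received CCl4 and Lenti-shLFAR1. CCl4 was given intraperitoneally 3 times a week as a 5% solution (v/v) in olive oil at 0.3 ml/kg. The virus followed through the tail vein after 2 weeks, and the injections went on for 4 weeks more. Each group held 10 mice, and 3 arrays per group were deposited. Every group therefore carried a lentivirus, and no group without virus was measured. The hairpin was driven by an H1 promoter and its delivery was not limited to a cell type. lnc-LFAR1 itself is not among the named probe sets, and the extent of its knockdown was not analysed here.

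CCl4 is turned into a reactive radical by cytochrome P450 in the hepatocytes around the central vein, and these cells die. Repeated doses set off several programmes side by side: hepatocytes secrete acute phase proteins, surviving cells divide, macrophages clear debris, and stellate cells become myofibroblasts that lay down collagen. A difference between responses can arise in any of these programmes, and it can lie in the CCl4 groups or in the oil groups that they are measured against.

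Some arrays stood apart. Within shLFAR1+CCl4 the 3 arrays differed widely. In the 830 genes that were called with the control virus at 1 log2 unit or more, the median share of the control-virus change was 0.199 in replicate 1, 0.207 in replicate 2 and 0.831 in replicate 3. Many of the results below are therefore also given without shLFAR1+CCl4 replicate 3, but not all of them. Where no such value is printed, the difference is that of the fit with all arrays, replicate 3 included. The array NC+CCl4 replicate 1 had the largest gap between 3′ and 5′ probe sets of Gapdh, a sign of RNA quality, at 0.716 log2 units where the remaining arrays gave -0.205 to 0.033. The 6 measured hepatocyte markers (Alb, Apoa1, Ttr, Ahsg, Hnf4a and Cyp2e1) averaged 13.46 to 13.55 in every array, as liver should, and their median difference between the responses was 0.02.

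**Figure D1:**
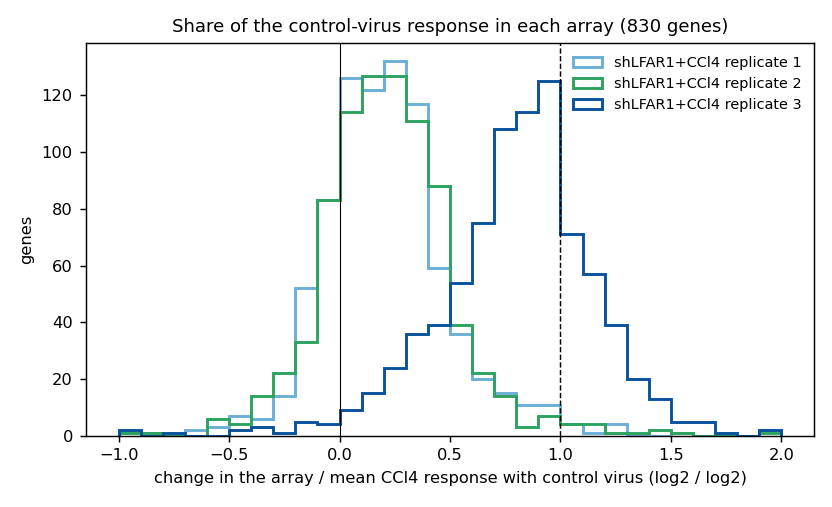
Share of the control-virus response found in each shLFAR1+CCl4 array, over the 830 genes called with the control virus at 1 log2 unit or more (x axis, change from the shLFAR1 mean divided by the control-virus response; y axis, number of genes; the outermost bins also hold values beyond the axis). Replicates 1 and 2 centre on 0.199 and 0.207 and replicate 3 on 0.831, where 1 (dashed) is the full control-virus response.

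Over all genes, only 4 differences between the responses were called at a Benjamini-Hochberg adjusted p under 0.05, which is 0.022% of the genes for higher values and 0% for lower ones. All 4 were genes that fell with the control virus: Nlrp12, Gpcpd1, Fbxo31 and Ces2a. At an unadjusted p under 0.05 there were 1731 genes, 832 higher (4.57%) and 899 lower (4.94%). The per-array changes of the 2 viruses did not overlap in 2111 genes with higher values for the knockdown virus (11.6%) and in 1630 with lower ones (8.96%). The count of calls turned on shLFAR1+CCl4 replicate 3. Without that array, 583 differences were called, 191 higher (1.05%) and 392 lower (2.15%), and the 4 genes were among them.

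The contrast between the responses taken one by one was larger. With the control virus 1393 genes rose (7.66%) and 985 fell (5.41%), whereas with the knockdown virus 59 rose (0.324%) and 15 fell (0.0824%). Genes that rose made up 58.6% of the calls with the control virus, 49.2% after quantile normalization and 28.2% after each array median was subtracted. A call with only 1 virus does not show that the responses differ, which is why the difference itself is used here. Of the 583 genes called without replicate 3, 562 had been called with the control virus, and in 561 of these the difference was opposite in sign to the control-virus change: 387 had risen and 174 had fallen. Replicate 3 was set aside because its response was close to that of the control virus, so a smaller response in the remaining arrays follows in part from that choice. The counts and p-values without replicate 3 are therefore descriptions of those arrays and no independent evidence of a smaller response, and leaving out replicate 1 or 2 of the group instead gave 0 calls.

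**Figure D2:**
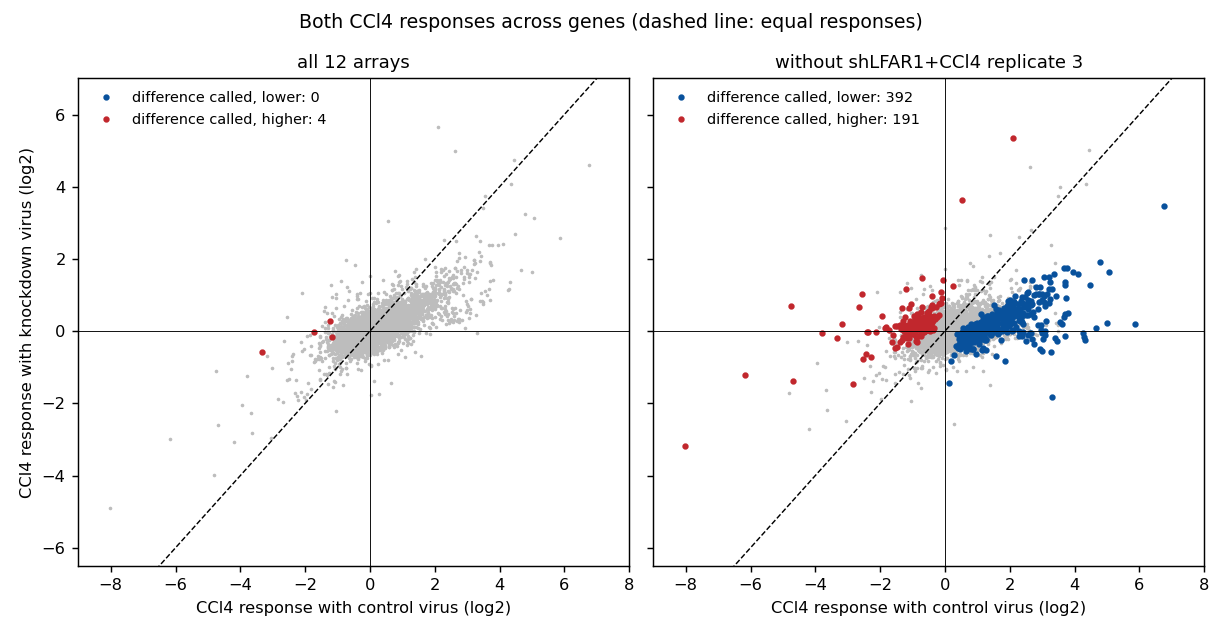
CCl4 response with the control virus (x axis, log2) and with the knockdown virus (y axis, log2) for 18193 genes, with all 12 arrays (left) and without shLFAR1+CCl4 replicate 3 (right). Each point is a gene, colours mark called differences, and the dashed line marks equal responses; with all arrays 4 points are coloured, and without replicate 3 they are 191 higher and 392 lower.

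The size of the remaining response was read by dividing the knockdown-virus change by the control-virus change. The arrays behind the numerator and the denominator are different ones. In the 830 genes the median ratio was 0.422 (quartiles 0.249 and 0.565), and 0.205 for the same genes without replicate 3. It was 0.433 in the 666 genes that rose and 0.337 in the 164 that fell, and without replicate 3 these were 0.218 and 0.161. A ratio of at least 0.75 was reached by 60 genes, and 35 had a ratio below 0. These genes were picked for a large change with the control virus, which by itself lowers the ratio. Turned round, the 48 genes called with the knockdown virus at 1 log2 unit or more had a median ratio of control over knockdown of 1.04.

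The 4 called genes are described first. Nlrp12 codes for a NOD-like receptor that dampens NF-kB signalling. Its log2 value was 8.79, 8.92 and 8.95 in NC, 5.63, 5.45 and 5.57 in NC+CCl4, 8.26, 8.17 and 8.30 in shLFAR1, and 8.09, 8.03 and 6.88 in shLFAR1+CCl4. The NC+CCl4 arrays lay far below all others, and only replicate 3 of shLFAR1+CCl4 had moved towards them. The control-virus response was -3.34 ± 0.24 (SE, n = 3 arrays per group), the knockdown-virus response -0.58 ± 0.24, and the difference 2.76 ± 0.34 (adjusted p = 0.0174, limma), or 3.16 without replicate 3 (adjusted p = 6.04e-07).

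Gpcpd1 codes for a glycerophosphocholine phosphodiesterase. Its log2 value was 9.55, 9.60 and 9.57 in NC, 7.78, 7.99 and 7.75 in NC+CCl4, 9.75, 9.39 and 9.05 in shLFAR1, and 9.33, 9.54 and 9.30 in shLFAR1+CCl4. Here all 3 shLFAR1+CCl4 arrays lay within the range of the shLFAR1 arrays, replicate 3 included. The responses were -1.73 and -0.01, and the difference was 1.72 ± 0.21 (adjusted p = 0.0174), or 1.77 without replicate 3. The gene has 4 probe sets, and the difference was positive in each, from 0.95 to 2.30.

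Fbxo31 codes for an F-box protein, the part of a ubiquitin ligase that picks the substrate. Its log2 value was 8.04, 7.82 and 7.90 in NC, 6.79, 6.64 and 6.63 in NC+CCl4, 7.40, 7.58 and 7.62 in shLFAR1, and 7.92, 7.92 and 7.58 in shLFAR1+CCl4. Only the NC+CCl4 arrays were low. The responses were -1.24 and 0.27, the difference was 1.51 ± 0.17 (adjusted p = 0.0174), and the other probe set of the gene gave 1.25.

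Ces2a codes for a carboxylesterase of the liver that cleaves esters, drugs among them. Its log2 value was 12.14, 12.24 and 11.98 in NC, 10.93, 10.85 and 11.02 in NC+CCl4, 12.00, 11.91 and 12.07 in shLFAR1, and 11.89, 12.00 and 11.63 in shLFAR1+CCl4. The pattern was that of Fbxo31, with replicate 3 the lowest of its group. The responses were -1.19 and -0.15, and the difference was 1.03 ± 0.14 (adjusted p = 0.0392).

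In each of the 4 genes the virus groups differed more among CCl4 arrays than among oil arrays. For Nlrp12 the gap (shLFAR1 minus NC) was 2.12 with CCl4 and -0.64 with oil, and for Gpcpd1 it was 1.55 and -0.17. None of the 4 calls held under every alternative. Over 23 alternatives Fbxo31 was called in 16, Gpcpd1 and Nlrp12 in 13 each and Ces2a in 10, always with a positive difference. The number of called genes fell to 0 without NC replicate 1, NC replicate 2, shLFAR1 replicate 2, shLFAR1+CCl4 replicate 1 or shLFAR1+CCl4 replicate 2, was 1 without NC+CCl4 replicate 1 or shLFAR1 replicate 1 and 2 without shLFAR1 replicate 3, and rose to 164 without NC+CCl4 replicate 2.

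**Figure D3:**
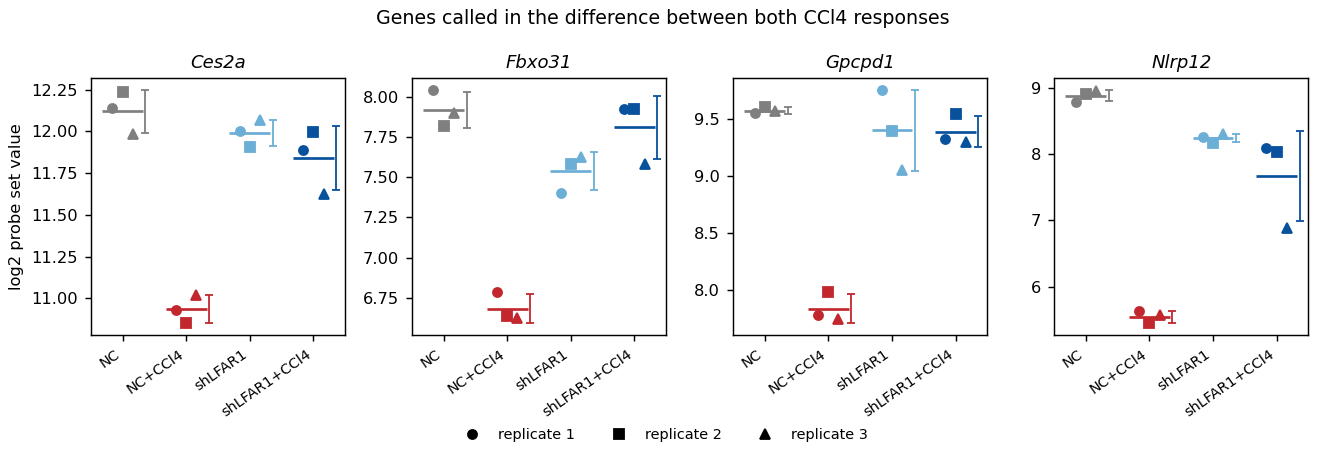
Log2 probe set values of the 4 genes called in the difference between the responses, in every array (points, shaped by replicate number; lines, group means; bars, SD of 3 arrays; the y axes differ between panels). The NC+CCl4 arrays lie below all other arrays in each panel, and replicate 3 of shLFAR1+CCl4 is the lowest of its group, down to 6.88 for Nlrp12.

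Promoter sequences of these genes are shown because a common motif would be visible there, and because Smad proteins, RBPJ (the DNA-binding partner of Notch) and AP-1 act in the fibrotic liver. The sequences are from RefSeq (GRCm38.p6), where 3 of the 4 genes have an entry and Gpcpd1 has none. Each is given 5′ to 3′ on the strand of the gene and ends at the base before the annotated start, with capitals for a match to CAGACA or TGGGAA on either strand. Ces2a is at chr8:104733753-104734002 (plus strand), Fbxo31 at chr8:121578807-121579056 (minus strand) and Nlrp12 at chr7:3249741-3249990 (minus strand).
Ces2a: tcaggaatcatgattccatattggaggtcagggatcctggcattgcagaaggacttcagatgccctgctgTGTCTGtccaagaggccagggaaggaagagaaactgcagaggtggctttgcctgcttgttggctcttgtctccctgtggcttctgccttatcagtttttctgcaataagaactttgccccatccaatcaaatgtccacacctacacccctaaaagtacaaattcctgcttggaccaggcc
Fbxo31: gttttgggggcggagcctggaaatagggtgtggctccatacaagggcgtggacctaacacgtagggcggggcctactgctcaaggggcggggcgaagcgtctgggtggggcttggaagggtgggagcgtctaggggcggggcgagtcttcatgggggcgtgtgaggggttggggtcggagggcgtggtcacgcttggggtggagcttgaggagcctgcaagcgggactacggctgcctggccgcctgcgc
Nlrp12: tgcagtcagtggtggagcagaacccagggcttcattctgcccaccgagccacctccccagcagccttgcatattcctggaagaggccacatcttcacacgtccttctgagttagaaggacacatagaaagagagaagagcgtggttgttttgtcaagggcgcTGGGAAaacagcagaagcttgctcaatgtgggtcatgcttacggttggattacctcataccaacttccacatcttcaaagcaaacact
The short Smad motif CAGACA occurred in Ces2a (as its reverse complement) and the RBPJ motif TGGGAA in Nlrp12. No motif was in more than 1 of the 3, and Fbxo31 had no match. These strings are common: of 32544 promoter windows of 300 bases, 20.9% hold CAGACA and 25.4% TGGGAA on either strand. Such windows are longer than the 250 bases printed for each gene. The longer Smad element GTCTAGAC is in 0.215% and the AP-1 motif TGACTCA in 5.19%. No string searched contains another. For the genes called without replicate 3, CAGACA was in 16.2% of the windows of the higher genes and 18.3% of the lower ones, and TGGGAA in 26.2% and 19.1%. The table held 153 of the 191 higher and 305 of the 392 lower genes. A match is only a stretch of letters and says nothing of binding.

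Beyond these genes, 51 lists of genes with a common function or cell type were described, 1058 of whose 1169 genes were measured. Of these lists only NF-kB feedback and Toll signalling held a called difference, Nlrp12, so for the rest the values are descriptions. Over all genes the median difference was 0.01, the median control-virus response -0.05 and the median knockdown-virus response -0.03. Counts of calls in a list stand against the shares of all genes. With the control virus 7.66% rose and 5.41% fell, and with the knockdown virus 0.324% rose and 0.0824% fell. Without replicate 3, 1.05% of the differences were called higher and 2.15% lower. Counts in a list and adjusted p-values of single genes from that fit only describe the arrays left after the choice. They are no evidence of a smaller response, and without shLFAR1+CCl4 replicate 1 or 2 instead 0 differences were called. Since these are livers and not sorted cells, fewer cells of a type and less RNA per cell cannot be told apart.

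Division showed the lowest list median. Of 34 measured genes of mitosis and G2/M, 27 rose with the control virus and 0 with the knockdown virus. The median response was 2.52 with the control virus and 0.34 with the knockdown virus, and the median difference was -2.16. At an unadjusted p under 0.05, 26 of the 34 were lower, against 4.94% of all genes, and 9 did not overlap between the viruses, against 8.96%. The arrays within each CCl4 group varied widely: the median change was 3.64, 0.90 and 2.77 in the NC+CCl4 arrays and -0.13, 0.01 and 1.27 in the shLFAR1+CCl4 arrays. Replicates 1 and 2 of shLFAR1+CCl4 thus had no change in mitotic genes, and replicate 3 exceeded NC+CCl4 replicate 2. Without replicate 3 the median difference was -2.43, and 8 members were called lower, against 2.15% of all genes. That count follows in part from leaving out replicate 3. Over the alternatives the median difference lay between -2.93 and -1.31.

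Mki67, the proliferation antigen Ki-67, shows this gene by gene. Its log2 value was 3.63, 3.88 and 3.71 in NC, 9.08, 6.47 and 8.42 in NC+CCl4, 3.58, 3.52 and 3.68 in shLFAR1, and 3.48, 3.60 and 7.11 in shLFAR1+CCl4. It stayed at the oil level in shLFAR1+CCl4 replicates 1 and 2 and was high in replicate 3. The difference was -3.11 ± 1.15 (adjusted p = 0.418), and -4.30 without replicate 3 (adjusted p = 0.00714). Birc5 (survivin), which guards chromosome segregation, had a difference of -3.13, the lowest of the list. Among 31 genes of DNA replication and S phase, 10 rose with the control virus and 0 with the knockdown virus, with medians of 1.14 and 0.17. For Mcm6, a subunit of the replicative helicase, the responses were 3.46 and 0.83. Ccnd1, cyclin D1 of the G1 phase, went from 6.32 to 6.69 in NC to 9.07 to 10.64 in NC+CCl4, and stood at 6.66, 6.51 and 9.71 in shLFAR1+CCl4 (difference -2.54, adjusted p = 0.414, and 0.00137 without replicate 3). The inhibitor Cdkn1a (p21) moved with it, at 2.96 and 0.84.

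Matrix genes are described next. Of 16 fibrillar and associated collagens, 9 rose with the control virus and 1, Col6a1, with the knockdown virus. The median responses were 1.27 and 0.50 and the median difference was -0.76. Over the alternatives it lay between -0.51 and -1.15, the last without replicate 3. In that fit 9 of the 16 differences were called lower, against 2.15% of all genes, a count that follows in part from leaving out replicate 3. Col1a1, a chain of type I collagen, was at 4.43, 4.48 and 4.81 in NC, 8.79, 8.50 and 7.86 in NC+CCl4, 4.78, 5.36 and 4.56 in shLFAR1, and 5.34, 5.46 and 8.15 in shLFAR1+CCl4. Replicate 3 lay between the NC+CCl4 arrays and the other replicates near the oil arrays. Its responses were 3.81 and 1.41 and its difference -2.40 ± 0.81 (adjusted p = 0.384, limma). Without replicate 3 the difference was -3.31 (adjusted p = 0.000735, limma), a p-value that follows in part from leaving out that array. Col3a1 gave -1.83 and Col1a2 -1.77.

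Other matrix lists had smaller medians. In the basement membrane list (20 genes), the median difference was -0.17 and the range -1.60 to 0.59, with Col4a2 lowest. Lama2, a laminin chain, was at 5.23, 5.28 and 5.47 in NC, 6.43, 6.39 and 6.69 in NC+CCl4, 5.26, 5.66 and 5.57 in shLFAR1, and 5.62, 5.47 and 5.87 in shLFAR1+CCl4. None of the 3 shLFAR1+CCl4 arrays reached the NC+CCl4 arrays, and its difference was -1.02 ± 0.21 (adjusted p = 0.17). Timp3, an inhibitor of metalloproteinases, had the same form, with responses of 1.27 and 0.20. In contrast Timp1, which inhibits many of the same enzymes, gave 1.64 and 1.24 with a difference of -0.40 ± 0.52. The gelatinase Mmp2 rose with both viruses, by 3.24 and 1.88. Of 29 genes of matrix crosslinking and turnover, 25 had a difference below 0.

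The stellate cell and myofibroblast list had 21 measured genes, and all 21 differences were below 0, with a median of -0.47 against 0.01 for all genes. Of them 12 rose with the control virus and 1, the receptor Pdgfra, with both viruses. The muscle-type actin Acta2 gave 1.45 and 0.57 (difference -0.88 ± 0.37, adjusted p = 0.483). The 5 stellate markers (Pdgfrb, Lrat, Des, Reln and Col1a1) averaged 8.10 to 8.40 in the NC+CCl4 arrays and 6.87 to 8.21 in the shLFAR1+CCl4 arrays. In the oil arrays they averaged 6.33 to 6.81. Col1a1 is itself in the collagen list, so these averages are not independent of the collagens. Of the markers 3 rose with the control virus and 0 with the knockdown virus, and their part in the result was not tested. Of 25 TGF-beta ligands, receptors and Smads, 9 rose with the control virus and 0 with the knockdown virus, with a median difference of -0.18. Ltbp2, which binds microfibrils, gave 2.43 and 0.95. The signal transducers Smad2 and Smad3 had control-virus responses of 0.10 and 0.06 that were not called, and differences of -0.00 ± 0.17 and -0.07 ± 0.19. In the Notch list (18 genes) the median was -0.01 and its sign turned under 7 alternatives. Notch1 and the ligand Dll1 rose with the control virus, by 0.68 and 0.97, and their differences were -0.41 and -0.82. For the target Hes1 the difference was -0.98 ± 0.41 (adjusted p = 0.481).

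A further list holds genes followed up by PCR or blotting in the same work, in part because of these arrays, so its direction is not independent evidence. Its 27 measured members had a median difference of -0.18. Of them 10 rose with the control virus and 2, Mmp2 and Col4a5, with the knockdown virus, and no difference was called. For Tgfb1, Tnf, Il1b and Ccl2 the differences lay between -0.18 and -0.00.

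Macrophage genes depended on replicate 3 as well. In the list of lipid and scar macrophages (17 genes), 14 rose with the control virus and 1, Lpl, with the knockdown virus. The median change was 1.40, 2.05 and 1.66 in the NC+CCl4 arrays and 0.43, 0.58 and 2.07 in the shLFAR1+CCl4 arrays, so that replicate 3 reached the highest of all. The median difference was -0.73 with all arrays. Over the alternatives it lay between -0.45 and -1.18, the last without replicate 3. In that fit 11 of the 17 were called lower, against 2.15% of all genes, a count that follows in part from leaving out replicate 3. Gpnmb, a glycoprotein of lipid-laden macrophages, was at 8.96, 10.15 and 9.67 in NC+CCl4 and at 6.15, 6.23 and 10.65 in shLFAR1+CCl4, against 4.36 to 4.80 in all oil arrays. Its difference was -1.94 ± 1.24 (adjusted p = 0.666), and -3.42 without replicate 3 (adjusted p = 0.000509). The 5 macrophage and Kupffer cell markers averaged 8.07 to 8.88 in NC+CCl4 and 7.51 to 8.52 in shLFAR1+CCl4, and their part was not tested. For lymphocytes there was little to compare: of 18 T cell, NK cell and B cell genes, 2 rose with the control virus and the median difference was 0.01, with a sign that turned under 7 alternatives.

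Antigen presentation behaved otherwise, because there replicate 3 was like its group. MHC class II proteins display peptides to helper T cells and are made by macrophages, dendritic cells and B cells. Of 9 measured genes 7 rose with the control virus and 2, H2-Ab1 and Ctss, with the knockdown virus. The median change was 1.92, 2.75 and 2.13 in the NC+CCl4 arrays and 1.35, 0.97 and 0.99 in the shLFAR1+CCl4 arrays. The median difference was -1.17 with all arrays and -1.13 without replicate 3, and 5 of 9 genes did not overlap between the viruses, against 8.96% of all genes. H2-Ab1, the beta chain of I-A, was at 6.52, 6.48 and 6.30 in NC, 9.10, 9.98 and 9.44 in NC+CCl4, 6.16, 6.75 and 6.49 in shLFAR1, and 8.30, 7.63 and 8.20 in shLFAR1+CCl4. All 3 shLFAR1+CCl4 arrays lay between the oil arrays and the NC+CCl4 arrays. The response was 3.07 and 1.58, and the difference -1.49 ± 0.33 (adjusted p = 0.211, and 0.0302 without replicate 3). Cd74, the invariant chain, gave 2.29 and 1.04. Of 11 measured genes of MHC class I and the immunoproteasome, 4 rose with the control virus and 2 with the knockdown virus. Their median difference was -0.15 with and without replicate 3, and 8 were below 0, against 8905 of 18193 genes. Psmb9 had the lowest difference (-0.62), and Tapbp gave -0.40. The class I genes H2-D1 and H2-K1 rose with both viruses, by 0.57 and 0.42 and by 0.56 and 0.46.

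Interferon-stimulated genes were also lower in the difference, with a median of -0.42 over 26 genes. Of them 14 rose with the control virus and 0 with the knockdown virus. Much of this came from NC+CCl4 replicate 2, where the median change was 1.92, against 0.84 and 0.30 in the other NC+CCl4 arrays and 0.35 to 0.57 in the shLFAR1+CCl4 arrays. Ifit2 gave 2.32 and 0.69.

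**Figure D4:**
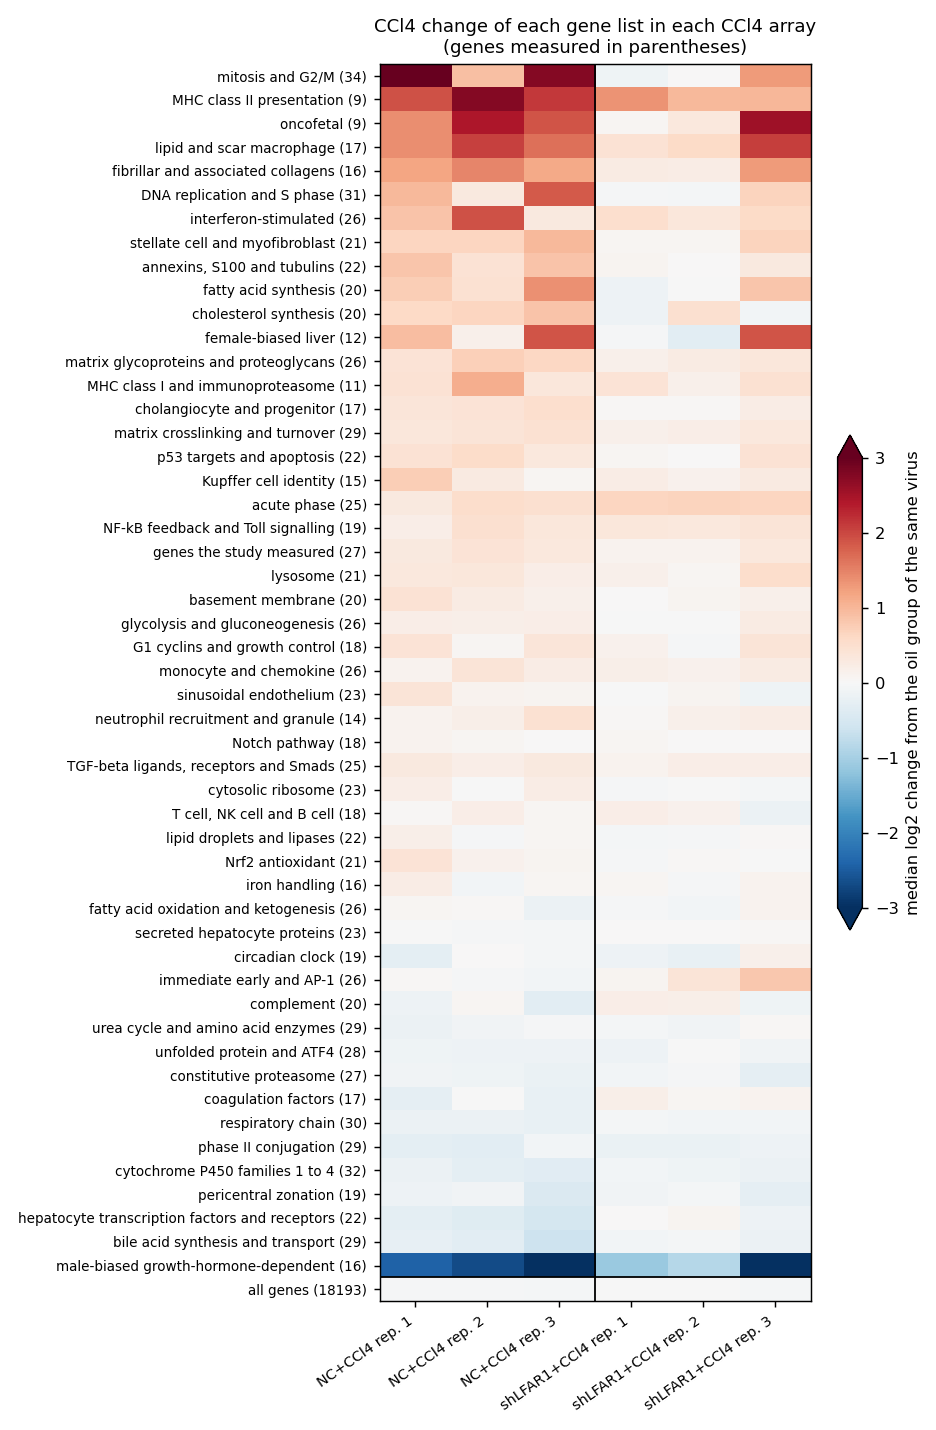
Median log2 change of each gene list in each CCl4 array, measured from the mean of the oil group with the same virus (colour, log2 units, cut at -3 and 3; rows, 51 lists ordered by the control-virus response with the number of genes measured, and all genes; columns, arrays). Mitosis, macrophage and collagen rows are pale in shLFAR1+CCl4 replicates 1 and 2 and coloured in replicate 3, whereas MHC class II is 0.97 to 1.35 in all 3 and the acute phase is 0.29 to 0.67 in all 6.

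Hepatocyte lists differed among themselves. No difference in them was called with all arrays, and the median difference was 0.02 for secreted hepatocyte proteins (23 genes), 0.05 each for the urea cycle and amino acid enzymes (29) and for fatty acid oxidation and ketogenesis (26), and -0.07 for pericentral genes (19), the last with a sign that turned under 4 alternatives. Male-biased genes that depend on growth hormone pulses had the lowest median control-virus response of the 51 lists (-3.35). Of 16 measured, 13 fell with the control virus and 1, Susd4, with the knockdown virus. All 16 differences were above 0, with a median of 0.82. Without replicate 3 the median was 1.47 and 6 were called higher, against 1.05% of all genes. That count follows in part from leaving out replicate 3. Over the alternatives the median lay between 0.42 and 1.53. Hsd3b5, a steroid dehydrogenase of male liver, was at 12.23, 12.53 and 12.18 in NC, 4.62, 4.44 and 3.81 in NC+CCl4, 12.40, 12.15 and 12.21 in shLFAR1, and 8.15, 10.00 and 3.93 in shLFAR1+CCl4. It was nearly lost in NC+CCl4 and in replicate 3, and partly lost in replicates 1 and 2. The difference was 3.13 ± 1.46 (adjusted p = 0.533), and 4.85 without replicate 3 (adjusted p = 0.000735). The anion carrier Slco1a1 gave -6.17 and -2.98. Of 12 female-biased genes 3 rose with the control virus, among them Cyp2b9 with 4.31 and 1.35. Their median difference was -0.25, which became 0.01 without shLFAR1+CCl4 replicate 2. Without replicate 3 it was -0.96 and 4 were called lower, against 2.15% of all genes. With all arrays, 0 of the 12 were lower at an unadjusted p under 0.05 or free of overlap between the viruses.

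Coagulation factors and the respiratory chain had small differences that were mostly above 0. Among 17 coagulation factors, 4 fell and 1 rose with the control virus. With the knockdown virus 0 fell, against 0.0824% of all genes, and the same 1 rose. Of the differences 16 were above 0, and 11 factors did not overlap between the viruses, against 11.6% of all genes. The median difference was 0.29 (0.31 without replicate 3). F11, factor XI, was at 9.95, 10.12 and 10.41 in NC, 9.14, 9.25 and 9.04 in NC+CCl4, 10.30, 10.06 and 10.02 in shLFAR1, and 10.27, 9.97 and 9.76 in shLFAR1+CCl4. All 3 shLFAR1+CCl4 arrays were above all NC+CCl4 arrays, and the difference was 0.89 ± 0.21 (adjusted p = 0.258). In the respiratory chain (30 genes), 12 fell with the control virus and 0 with the knockdown virus. Here 17 of 30 did not overlap, all of them higher, although the median difference was only 0.12. Ndufb5, a subunit of complex I, gave -0.47 and -0.15.

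Of 22 hepatocyte transcription factors and receptors 7 fell and 1 rose with the control virus. With the knockdown virus 0 fell and the same 1 rose, and the median difference was 0.38. Nr1i3 (CAR), which senses foreign compounds, gave -0.97 and -0.30, and Insr, the insulin receptor, -0.67 and 0.22 (difference 0.89 ± 0.16, adjusted p = 0.12). Among 32 cytochrome P450 genes 15 fell and 3 rose with the control virus, and 0 fell and 1 rose with the knockdown virus. Their median difference was 0.14. Cyp2e1, which activates CCl4, gave -0.49 and -0.23. In the bile acid list (29 genes) 10 fell and 2 rose with the control virus, 0 were called with the knockdown virus, and the median difference was 0.25. For phase II conjugation (29 genes) the medians were -0.23 with each virus and 0.00 for the difference, whose sign turned under 3 alternatives. Slc1a2, a glutamate carrier of pericentral hepatocytes, split the group. It was at 7.80 and 7.92 in shLFAR1+CCl4 replicates 1 and 2 and at 4.31 in replicate 3, against 3.83 to 4.55 in NC+CCl4 and 7.75 to 8.34 in all oil arrays.

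Lipid synthesis differed in where the difference lay. Of 20 genes of fatty acid synthesis 9 rose with the control virus and 0 with the knockdown virus, and the median difference was -0.68. Scd1, which makes oleate, gave 3.12 and 0.88 and had a gap between the viruses of 1.25 with oil and -0.99 with CCl4. Of 20 genes of cholesterol synthesis 5 rose with the control virus and 0 with the knockdown virus, with a median difference of -0.60. Their median gap (shLFAR1 minus NC) was 0.76 among the oil arrays and 0.12 among the CCl4 arrays. Sqle, squalene epoxidase, illustrates it, at 6.69, 7.87 and 8.51 in NC, 9.23, 9.31 and 10.26 in NC+CCl4, 8.81, 9.95 and 7.93 in shLFAR1, and 8.89, 9.97 and 9.57 in shLFAR1+CCl4. The CCl4 groups overlapped and the shLFAR1 arrays already lay in part at that level under oil. Such genes were a minority: of the 1731 differences at an unadjusted p under 0.05, the oil arrays differed more than the CCl4 arrays in 291, and in 21 of the 583 called without replicate 3.

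Some responses were alike with both viruses. A response was counted as kept if it was called in the same direction with both viruses and the 95% interval of the difference lay within 50% of the control-virus change on either side of 0. Of the 66 genes called with both viruses, all in the same direction, 13 were kept by this measure (11 rose and 2 fell), and 12 without replicate 3, 10 of them the same. Of the 13, Saa3 and Hp are in the acute phase list, S100a8 and S100a9 in the neutrophil list, Susd4 in the male-biased list and Fitm1 in that of lipid droplets, and the others are in no list. The other 2361 genes called with the control virus, beside the 4 with a called difference, could not be placed in a class.

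Of 25 acute phase genes, 15 rose with the control virus and 11 with the knockdown virus, 9 of them with both. This share with the knockdown virus stands against 0.324% of all genes. The median change was 0.29, 0.53 and 0.48 in NC+CCl4 and 0.65, 0.67 and 0.66 in shLFAR1+CCl4, and the median difference was 0.19, which became -0.06 without NC+CCl4 replicate 1. Saa3, a serum amyloid A protein, was at 6.32, 6.22 and 6.58 in NC, 10.35, 11.07 and 10.81 in NC+CCl4, 6.55, 6.60 and 6.36 in shLFAR1, and 10.01, 11.13 and 10.58 in shLFAR1+CCl4. Both CCl4 groups overlapped, at 10.35 to 11.07 in NC+CCl4 and 10.01 to 11.13 in shLFAR1+CCl4. The responses were 4.37 ± 0.25 and 4.07 ± 0.25 and the difference -0.30 ± 0.35. Haptoglobin (Hp) rose by 0.52 and 0.50. Fgl1, a fibrinogen-like protein secreted by hepatocytes, rose by 2.29 and 2.53. Only 2 of the 25 were kept by the measure above. The lowest difference in the list was that of Lcn2, lipocalin 2, at 10.79, 12.19 and 12.32 in NC+CCl4 and 9.26, 8.48 and 12.22 in shLFAR1+CCl4, with a difference of -2.17 ± 1.02 (adjusted p = 0.537, and 0.00731 without replicate 3).

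S100a8 and S100a9, 2 of the 4 measured neutrophil markers, were kept too, whereas Mpo and Elane were not called with either virus. In the neutrophil list (14 genes), 3 rose with each virus, 2 of them with both, and the median responses were only 0.19 and 0.11. The median difference of that list was -0.05, with a sign that turned under 6 alternatives. S100a8 was at 3.38, 3.60 and 2.97 in NC, 6.49, 6.64 and 7.31 in NC+CCl4, 2.90, 4.11 and 3.11 in shLFAR1, and 6.98, 7.24 and 6.16 in shLFAR1+CCl4. Its responses were 3.49 and 3.42 and its difference -0.08 ± 0.49, whose sign turned without replicate 3 (0.24). Among the falling genes, Susd4, a complement regulator, was kept at -3.06 and -2.96 and Fitm1, a protein of lipid droplet formation, at -1.96 and -1.91. Without replicate 3 Susd4 had a difference of 0.57 that was not called (adjusted p = 0.195).

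**Figure D5:**
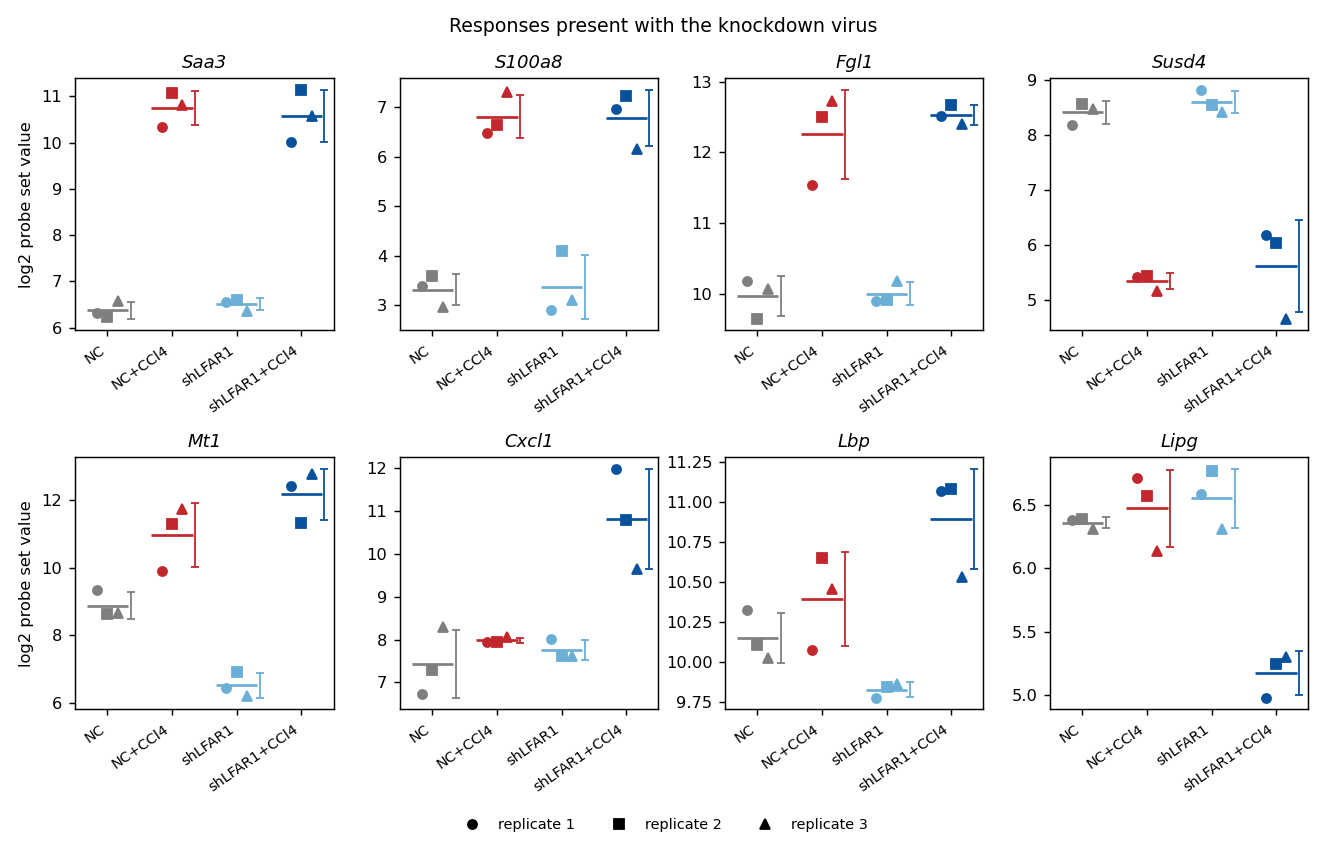
Log2 probe set values of 4 genes whose response was kept (upper row) and 4 whose response was larger or appeared with the knockdown virus in at least 1 fit (lower row), in every array (points, shaped by replicate number; lines, group means; bars, SD of 3 arrays; the y axes differ between panels). In Saa3 both CCl4 groups overlap and lie above the oil groups, in Mt1 the oil groups also differ, and Lipg is low only in the shLFAR1+CCl4 arrays, at 4.98 to 5.30.

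Few responses were larger with the knockdown virus. Metallothioneins bind zinc and copper and rise in acute inflammation and stress. Mt1 was at 9.35, 8.64 and 8.66 in NC, 9.90, 11.29 and 11.73 in NC+CCl4, 6.43, 6.93 and 6.20 in shLFAR1, and 12.42, 11.34 and 12.78 in shLFAR1+CCl4. It rose with both viruses, by 2.09 ± 0.44 and 5.66 ± 0.44, and the difference was 3.56 ± 0.63 (adjusted p = 0.114, and 0.016 without replicate 3). Its oil arrays differed more between the viruses (-2.36) than its CCl4 arrays (1.20). Mt2 gave 2.64 and 5.00 with a difference of 2.36 ± 0.75.

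Gained responses, that is a called difference with a call for the knockdown virus and none for the control virus, were 0 with all arrays and 8 without replicate 3: Cxcl1, Socs3, Lbp, Il1r1, Lipg, Slc37a1, Spata13 and Tab2. Apart from Lipg these genes were singled out after their values were seen. Cxcl1, a chemokine that draws neutrophils, was at 6.72, 7.30 and 8.29 in NC, 7.94, 7.95 and 8.05 in NC+CCl4, 8.02, 7.62 and 7.63 in shLFAR1, and 11.98, 10.79 and 9.65 in shLFAR1+CCl4. All 3 shLFAR1+CCl4 arrays lay above every other array, replicate 3 least. The responses were 0.54 and 3.05 and the difference 2.51 ± 0.67 (adjusted p = 0.306, and 0.00866 without replicate 3). Socs3 and Lbp are members of the acute phase list. Socs3, which restrains cytokine signalling, gave -0.05 and 1.04, and Lbp, which binds bacterial lipopolysaccharide, 0.24 and 1.07. Lipg, endothelial lipase, fell with the knockdown virus and was not called with the control virus. It went from 6.58, 6.77 and 6.31 in shLFAR1 to 4.98, 5.25 and 5.30 in shLFAR1+CCl4, and was at 6.31 to 6.39 in NC and 6.13 to 6.71 in NC+CCl4. Its difference was -1.48 ± 0.23 (adjusted p = 0.0716, and 0.00688 without replicate 3).

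Immediate early genes had a median difference of 0.17 over 26 genes, and the median change was 0.03, -0.04 and -0.08 in NC+CCl4 and 0.09, 0.39 and 0.81 in shLFAR1+CCl4. Gadd45g, a stress sensor, was the highest at 3.16 ± 0.73 (adjusted p = 0.258). Its gap between the viruses was -2.84 with oil and 0.32 with CCl4. Chac1, which degrades glutathione and is a target of ATF4, was at 7.40, 7.10 and 6.14 in NC, 5.92, 5.86 and 5.25 in NC+CCl4, 5.87, 5.80 and 5.95 in shLFAR1, and 7.02, 7.05 and 7.35 in shLFAR1+CCl4. Its difference was 2.47 ± 0.38 (adjusted p = 0.0716), with a fall of 1.20 that was called with the control virus and a response of 1.27 with the knockdown virus that was not. Over the 28 genes of the unfolded protein and ATF4 list the median was -0.05, with a sign that turned under 7 alternatives. At an unadjusted p under 0.05, 4 of the 28 were higher and 0 lower, against 4.57% and 4.94% of all genes, and Herpud1, which acts in the degradation of misfolded proteins and was named after its value was seen, gave 1.40 ± 0.36 (adjusted p = 0.306).

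The other genes with the smallest p were given as values, as none was called. Among lower ones, Serpina7, the thyroxine-binding globulin of serum, was at 7.22, 7.34 and 7.89 in NC, 10.21, 9.44 and 9.89 in NC+CCl4, 7.59, 8.03 and 8.44 in shLFAR1, and 8.33, 8.30 and 8.04 in shLFAR1+CCl4. It rose with the control virus, and its knockdown-virus response was 0.20 (difference -2.16 ± 0.34, adjusted p = 0.0716, and 0.00957 without replicate 3). Nfe2l2, the transcription factor Nrf2 of the antioxidant response, gave 1.13 and -0.27 (difference -1.40 ± 0.25, adjusted p = 0.114). The list of Nrf2 target genes had a median difference of -0.11, with 13 of 21 below 0. At an unadjusted p under 0.05, 3 members were lower and 3 higher, against 4.94% and 4.57% of all genes. The list includes Mt1 and Mt2, whose differences were 3.56 and 2.36. Tubb2a, a beta tubulin, gave 1.57 and -0.70, in a list of annexins, S100 proteins and tubulins where 20 of 22 differences were below 0, against 8905 of 18193 genes, and 9 did not overlap, against 8.96%. E2f2, a transcription factor of S phase entry, gave 1.06 and -0.17, and Npdc1 2.20 and 0.41. Among higher ones, Slc38a2, an amino acid carrier, gave -1.30 and 0.16, and Etfrf1, a regulator of the electron transfer flavoprotein, -0.66 and 0.17.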

How the data were processed

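RNA from 12 mouse livers was hybridised by the authors to Affymetrix whole-genome mouse arrays, 1 liver per array. The deposited values are log2 intensities per probe set, summarised and normalized between arrays by the authors with a method that is not given in the sources used here. They range from 1.81 to 14.5, and the array means from 5.10 to 5.11. Groups were taken from the labels, which call the arrays of a group biological replicates.

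Of 45101 probe sets, 34958 carried 1 gene symbol in the platform annotation, 932 several and 9211 none, and the 64 control probe sets were left out. Each of the 18193 genes was read by its probe set with the highest mean (9010 genes have more than 1). Means of the 4 groups were fitted with limma 3.58.1 (R 4.3.3) with lmFit and eBayes (trend = TRUE, 8 residual degrees of freedom). Contrasts were formed from them, and p-values were adjusted by Benjamini-Hochberg over all genes, with calls at 0.05. The fit was tested on simulated data. Only 3 arrays per group limit the precision.

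The genes and lists were chosen with earlier results of these data known. Named genes are the 4 called in the difference, the genes with the smallest p that fill each direction to 12, for each list its called members, else the 2 with the largest called control-virus response, else the 2 with the highest mean, the genes followed up by PCR or blotting in the same work, and up to 8 genes per direction among kept responses and 8 among gained ones. Outside this rule, Cd74, Hp, Timp3, Col4a2, Col6a1, Cyp2e1, H2-D1, H2-K1, Pdgfra and the hepatocyte and stellate markers were named after their values were seen, besides those the text gives as such. The 51 lists overlap, with 51 genes in more than 1. Alternatives were other variance models, array weights, scalings, probe set choices, a filter on low values, a replicate block, the methods' test and leaving out each array in turn.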

Additional observations from a re-analysis of the deposited data

Results flagged for a closer look

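The responses to CCl4 with the 2 viruses differed, by the test of the difference itself, in 4 genes. The difference (knockdown-virus response minus control-virus response, log2) was 2.76 for Nlrp12, 1.72 for Gpcpd1, 1.51 for Fbxo31 and 1.03 for Ces2a, with adjusted p from 0.0174 to 0.0392 (limma).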

How the results depend on the processing

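The count of 4 differences became 393 with weights by array, 7 after quantile normalization, 10 among genes with a mean above the median, 2 with the mean of all probe sets and 0 without moderation of the variances. Leaving out 1 array gave 0 to 583. The study's threshold, a fold change above 1.6 with an unadjusted p under 0.05, gave 728. Adjustment over the 2369 genes called for the average CCl4 effect, chosen after the data were seen, gave 35 (21 higher, 14 lower). The 583 calls without shLFAR1+CCl4 replicate 3 shared 299 genes with those by array weights and 62 with the 164 without NC+CCl4 replicate 2. No gene was called with all arrays and also in every fit that left out 1 CCl4 array. The control-virus response (2378 calls) had 4087 with array medians subtracted, 1438 without moderation, and 1263 to 2923 when 1 array was left out. The methods' t-test gave 1262 at its own threshold and 280 after adjustment. The knockdown-virus response (74 calls) had 211 with weights by group, 375 with weights by array, 8 without moderation, 483 at the study's threshold, 240 by the methods' t-test and 0 after its adjustment, and 23 to 110 when 1 array was left out. Kept responses (13) were 6 without moderation and 8 to 17 when 1 array was left out. The median ratio of the responses (0.422) lay between 0.194 and 0.531 when 1 array was left out. Subtracting array medians moved the median difference of all genes from 0.01 to 0.09 and the median control-virus response from -0.05 to -0.19. Same-numbered arrays of different groups correlated between -0.135 and 0.229 in their deviations from the group means, so the numbers were not taken to pair the samples over all groups, although between NC+CCl4 and shLFAR1+CCl4 the same-numbered arrays correlated at 0.126 to 0.229. With a replicate block 4 differences were called, Nlrp12, Gpcpd1, Fbxo31 and Cyp2g1, and Ces2a was lost (adjusted p = 0.0879, limma). No called value changed sign under an alternative. Of the values for single named genes and lists, 4230 stayed on their side of the threshold, 161 passed it, 40 lost it and 69 moved by more than the replicate spread.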
